A study of Mus musculus with 8 samples.

Results

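The mitochondrial ribosomal proteins are nuclear-encoded subunits of the ribosome that translates the messenger RNAs of the mitochondrial genome, which code for core parts of the respiratory chain. They are made in the cytosol, imported into mitochondria and assembled there on ribosomal RNA transcribed from mitochondrial DNA. Some have relatives in the bacterial ribosome, and others are found only in mitochondria. Members were chosen by symbol alone, as the probe sets whose only annotated gene symbol was Mrpl (large subunit) or Mrps (small subunit) followed by a number and at most 1 letter. The rule found 156 probe sets of 76 genes, 47 Mrpl and 29 Mrps, among 34945 probe sets of 18193 genes with 1 symbol. Of the 156, 136 exceeded 50 on the linear scale on at least 1 array, so that all 76 genes could be tested, among 11940 genes in all. Mrps30 and Mrps18a are known today as large-subunit proteins, and Mrps36 is now assigned to the 2-oxoglutarate dehydrogenase complex, but all 3 were kept because the rule goes by symbol.

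The 8 arrays (Affymetrix, mouse) were hybridised with RNA of V6.5 mouse embryonic stem cells (ESCs) grown on gelatin with LIF. All cells carried a constitutive shRNA against mouse Wdr5, and a human WDR5 transgene under doxycycline control. WDR5 is a subunit of the MLL complexes, which methylate histone H3 at lysine 4. The transgene was wild type (WT) or F266A, a point mutant defective in RNA binding. Each line was kept with doxycycline at 2 µg/mL (+dox) or without it (-dox, 0 µg/mL), which gave 4 groups of 2 arrays each. No group had unaltered Wdr5. There was 1 line of each transgene, sorted for GFP, so the mutation and other features of a line cannot be told apart. The comparisons ask how transcripts change when WT or F266A WDR5 is withdrawn, and how the F266A line differs from the WT line. Each comparison of -dox with +dox also removes doxycycline itself, and no group without the transgene was included. Removal of the drug and loss of WDR5 therefore cannot be told apart.

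Levels are log2 values from robust multi-array averaging, averaged over the probe sets of a gene. Differences are on the same log2 scale. All 7 ESC markers examined were above the minimum on these arrays, and 6 of 7 fibroblast markers were at or under it. The summed linear level of the ESC markers was 58190 to 58740 with WT +dox, 53840 to 55000 with WT -dox, 52060 to 52490 with F266A +dox and 43520 to 45720 with F266A -dox. In the same order, 1 control probe set of 18S ribosomal RNA was at 11.25 to 11.42, 10.97 to 11.32, 10.74 to 10.91 and 10.12 to 10.27 (log2). From WT +dox to F266A -dox, the summed level of 6 endoderm markers (4 of them at or under the minimum) went from 199.9 to 226.5 up to 275.9 to 292.1, that of 5 trophoblast markers (2 at or under it) from 1487 to 1634 down to 1032 to 1137, and that of 5 neural markers (1 at or under it) from 386.3 to 406.6 up to 442 to 509.1. By gene, all 7 ESC markers had a lower mean with F266A -dox than with WT +dox, 6 of them called. On withdrawal of WT, 3 of the 7 were above 0, none called, and 3 were called lower. Between F266A -dox and WT +dox, the 1 fibroblast marker tested, Col1a2, was called higher (0.63). Of 2 endoderm markers tested, Dab2 was called higher (1.28), and Gata6 was at -0.12. Of 4 neural markers tested, 2 were called higher and Sox1 was called lower (-0.64). Of the 3 trophoblast markers tested, Cdx2 and Eomes were called higher (0.99 and 0.37). Tfap2c, which had the highest level of these, was called lower (-0.77). The part of any of these in the results on the members was not tested. The Wdr5 probe sets, designed on the mouse gene, were at 8.35 and 8.32 with WT +dox, 9.45 and 9.35 with WT -dox, 8.59 and 8.56 with F266A +dox, and 9.31 and 9.27 with F266A -dox. They were higher without doxycycline in both lines, by 1.06 (SE 0.066, limma adjusted p = 1.47e-05) and 0.71 (SE 0.066, limma adjusted p = 0.000318), which does not check the human transgene.

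Promoter windows from RefSeq (GRCm38.p6; 250 bases before the annotated start and 50 after it) were at hand for 67 of the 76 members. In 24 of the 67 (35.8%), a protein-coding gene on the other strand started within 1000 bases of the member, with an overlap of up to 200 bases allowed. The share was 8.82% among 17492 protein-coding genes and 13.4% among 9395 genes tested. Mrpl46 and Mrps11, a large-subunit and a small-subunit gene, are each other's neighbour, with starts 42 bases apart. Mrpl18 stands next to Tcp1, a subunit of the cytosolic chaperonin, and Mrpl49 next to Fau, which encodes a cytosolic ribosomal protein.

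The stretches before the start are printed for 5 members whose levels are described below, because their difference between F266A -dox and WT +dox was called whichever array was left out. They are read 5′ to 3′ on the strand of the gene. Each stops where another gene record begins, or at 250 bases where none does, as for Mrpl20 and Mrps24. The first 4 were lowest with WT +dox, and Mrps24 was lower in the F266A line. Mrpl35 and Mrps16 also kept their call with each array left out and had such a stretch, but are not printed. Of the other named members that kept theirs, Mrpl19 and Mrps34 had no window. For Mrpl2, Mrpl23, Mrpl24, Mrps2 and Mrps7, a gene record was reached at once. Capitals mark a match to a motif of the next paragraph.
Mrpl20 (chr4:155802628-155802877, plus strand): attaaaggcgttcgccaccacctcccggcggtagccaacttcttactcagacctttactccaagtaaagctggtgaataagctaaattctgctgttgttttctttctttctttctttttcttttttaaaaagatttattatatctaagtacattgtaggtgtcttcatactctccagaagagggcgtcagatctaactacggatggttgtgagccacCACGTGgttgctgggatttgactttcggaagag
Mrps11, shared with Mrpl46 (chr7:78783090-78783130, plus strand): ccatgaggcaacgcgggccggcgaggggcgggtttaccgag
Mrps18b (chr17:35916441-35916511, minus strand): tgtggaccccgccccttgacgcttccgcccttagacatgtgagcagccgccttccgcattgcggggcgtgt
Mrpl34 (chr8:71464708-71464925, plus strand): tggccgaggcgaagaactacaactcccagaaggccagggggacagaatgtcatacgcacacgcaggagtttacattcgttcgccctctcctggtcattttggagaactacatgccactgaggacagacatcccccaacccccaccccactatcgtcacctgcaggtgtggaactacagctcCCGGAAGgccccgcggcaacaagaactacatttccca
Mrps24 (chr11:5707702-5707951, minus strand): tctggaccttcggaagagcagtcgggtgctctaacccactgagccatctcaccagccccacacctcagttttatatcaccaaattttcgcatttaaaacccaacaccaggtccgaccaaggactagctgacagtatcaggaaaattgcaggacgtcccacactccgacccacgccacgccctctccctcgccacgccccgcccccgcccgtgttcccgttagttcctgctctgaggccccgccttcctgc

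Motifs of 4 factors or families were searched on both strands of the windows, with N as any base: CCGGAAG (ETS and GABP), GCGCANGCG (NRF1), AANATGGCG (YY1) and CACGTG (the E-box of MYC and related factors). GABP, NRF1 and YY1 are known regulators of nuclear genes for mitochondrial proteins. The ETS and GABP motif was found in 25 of 67 members (37.3%), against 9.93% of the 27025 genes with a window and 19.9% of the genes tested. The NRF1 motif was found in 22.4% of members, against 7.03% and 15.2%. The YY1 motif was found in 16.4%, against 2.76% and 5.98%, and the E-box in 7.46%, against 8.09% and 11.7%. Mrpl20 held an E-box beginning 33 bases before its start, and Mrpl34 an ETS and GABP motif beginning 37 bases before its start. The stretches printed for Mrps11, Mrps18b and Mrps24 held no match, but their windows held a YY1 motif (Mrps11 and Mrps24) or ETS and GABP and NRF1 motifs (Mrps18b). The windows reach past the start and, for Mrps11 and Mrps18b, also further upstream than the stretch. Of the 22 members with a window that were higher after withdrawal of WT, 36.4% held the ETS and GABP motif and 27.3% the NRF1 motif, against 37.8% and 20% of the other 45. The YY1 motif was held by 13.6% and 17.8%, and the E-box by 13.6% (3 genes) and 4.44% (2 genes). A match describes the letters of a window and was not tested as a binding site.

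Members were highly expressed. Their mean log2 level had a median of 9.97, against 7.71 for all genes tested, and ran from 7.52 for Mrpl17 to 11.51 for Mrpl39. The median over the 76 members was 9.94 and 9.93 on the WT +dox arrays, 10.05 and 10.01 with WT -dox, 9.97 and 9.89 with F266A +dox, and 9.9965 and 9.9969 with F266A -dox. The set as a whole moved little, with WT -dox at the top and F266A +dox replicate 2 at the bottom. Duplicates lay close together, with a median SD of 0.049 for a member, against 0.080 for all genes. Fewer cells with a transcript and less transcript per cell cannot be told apart in such bulk samples.

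**Figure D1:**
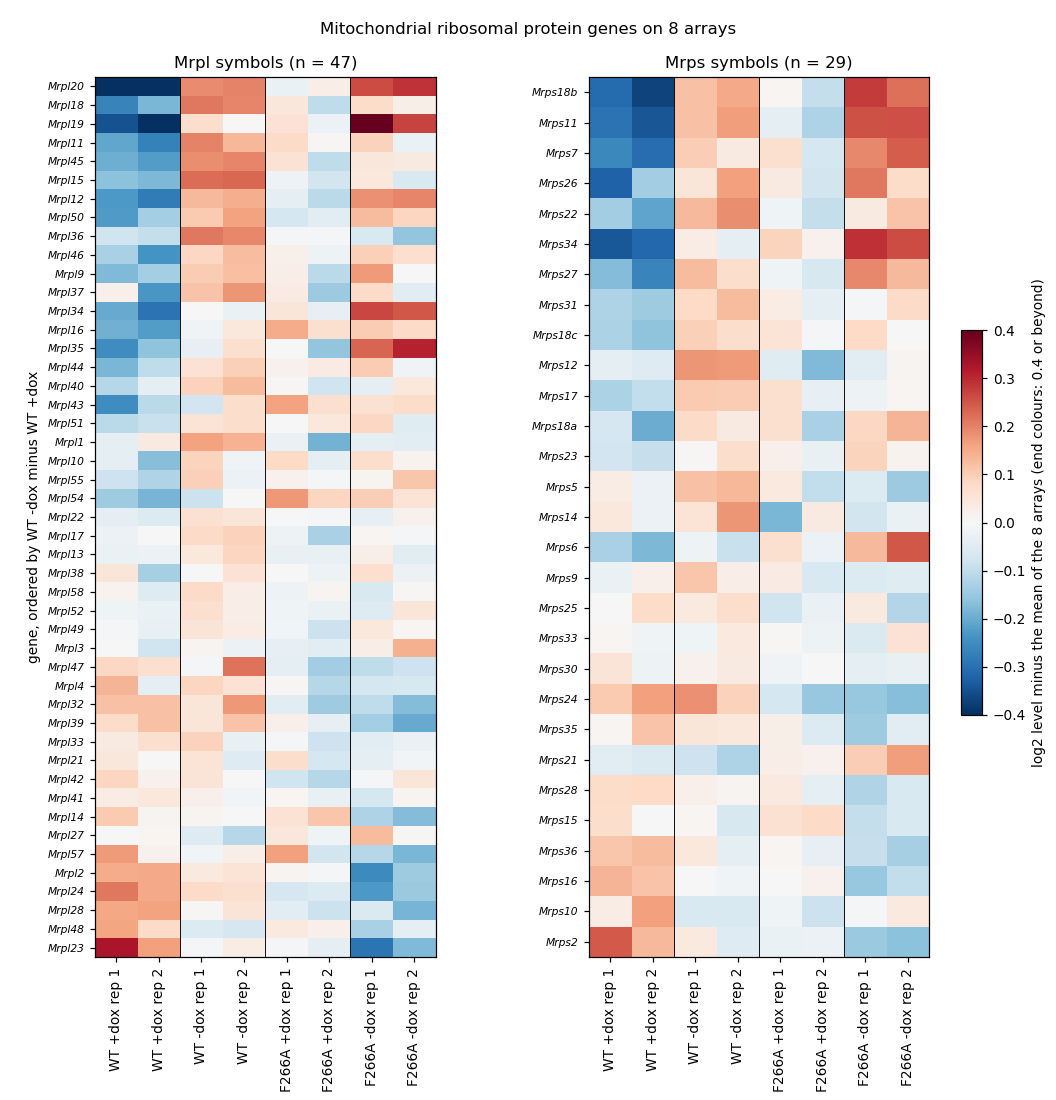
Log2 level of the 76 members on each of the 8 arrays, less the mean of the gene over the arrays (colour; the end colours stand for 0.4 or beyond), with Mrpl symbols on the left and Mrps symbols on the right. Genes are ordered by WT -dox minus WT +dox, and the upper rows, led by Mrpl20 (0.66) and Mrps18b (0.47), are low on both WT +dox arrays.

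After withdrawal of WT WDR5, more members rose than fell. With WT -dox, 25 of the 76 were higher and 1 was lower than with WT +dox at an adjusted p under 0.05. The rises were largest in Mrpl20 (1.58-fold), Mrps18b (1.39-fold) and Mrps11 (1.38-fold), and Mrpl23 fell. The share of members called was 34.2%, against 31.5% of all genes, but by direction the genes called were 16.1% higher and 15.4% lower. The median difference of the members was 0.10 (range -0.23 to 0.66), against 0.0037 for all genes. Both arrays of WT -dox were above both of WT +dox in 46 members (60.5%, against 34.7% of all genes) and below them in 13 (17.1%, against 32.8%). None reached the 2-fold change that the study's methods required, here or in any other comparison. The count was smaller without WT +dox replicate 2 (17), WT -dox replicate 1 (15) or WT -dox replicate 2 (14), with 22.7%, 20.4% and 19.8% of all genes then called.

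Mrpl20, whose bacterial relative binds the ribosomal RNA early in assembly of the large subunit, varied most. Its log2 level was 10.56 and 10.49 with WT +dox, 11.18 and 11.19 with WT -dox, 10.97 and 11.02 with F266A +dox, and 11.26 and 11.28 with F266A -dox. WT +dox was lowest and F266A -dox highest, and no groups overlapped. The rise on withdrawal of WT was 0.66 (SE 0.064, limma adjusted p = 0.000117). Mrpl18, which binds the 5S ribosomal RNA in bacteria, was at 10.83 and 10.91 with WT +dox, 11.31 and 11.29 with WT -dox, 11.14 and 11.00 with F266A +dox, and 11.17 and 11.12 with F266A -dox. Here WT -dox was highest and WT +dox lowest, and it rose by 0.43 (SE 0.073, limma adjusted p = 0.00227).

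In the small subunit, Mrps18b and Mrps11 rose most. Mrps18b, a paralog of the bacterial S18 protein with a place of its own in the mitochondrial subunit, was at 10.42 and 10.36 with WT +dox, 10.85 and 10.88 with WT -dox, 10.74 and 10.63 with F266A +dox, and 11.01 and 10.95 with F266A -dox. Mrps11, a protein of the platform, was at 8.40 and 8.36 with WT +dox, 8.81 and 8.87 with WT -dox, 8.66 and 8.58 with F266A +dox, and 8.95 and 8.96 with F266A -dox. For both genes WT +dox was lowest, F266A -dox was highest and no groups overlapped. The rise on withdrawal of WT was 0.47 (SE 0.069, limma adjusted p = 0.000973) for Mrps18b. It was 0.46 (SE 0.066, limma adjusted p = 0.000911) for Mrps11. Mrpl46, on the other side of the short stretch printed for Mrps11, was at 10.07 and 9.96 with WT +dox and 10.29 and 10.32 with WT -dox, a rise of 0.29 (SE 0.068, limma adjusted p = 0.0111), so both genes of the pair were called.

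The paralogs of Mrps18b moved less. Mrps18c, which takes the place of bacterial S18, was higher by 0.23 (SE 0.066, limma adjusted p = 0.0266). For Mrps18a, which sits in the large subunit, the difference was 0.19 (SE 0.083, limma adjusted p = 0.113). Differences between paralogs were not tested.

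Of the 3 proteins of the stalk, which recruits the translation factors, Mrpl11 and Mrpl12 rose. Mrpl11 was at 9.04 and 8.98 with WT +dox, 9.44 and 9.38 with WT -dox, 9.33 and 9.25 with F266A +dox, and 9.34 and 9.22 with F266A -dox. WT +dox was lowest and WT -dox highest, and the F266A groups overlapped. The rise was 0.40 (SE 0.072, limma adjusted p = 0.00281) for Mrpl11 and 0.39 (SE 0.064, limma adjusted p = 0.00178) for Mrpl12, while for Mrpl10, the base of the stalk, the difference was 0.14 (SE 0.078, limma adjusted p = 0.205).

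Members listed for the exit of the nascent chain went both ways. Of 8 listed (Mrpl17, Mrpl19, Mrpl22, Mrpl23, Mrpl24, Mrpl44, Mrpl45 and Mrpl47), 3 were higher and 1 lower. This is 50% called, against 31.5% of all genes. Mrpl19 was in the list, although its bacterial relative is not a protein of the exit. Mrpl19 rose by 0.42 (SE 0.075, limma adjusted p = 0.00277), and Mrpl45, which docks the ribosome at the inner membrane, by 0.40 (SE 0.072, limma adjusted p = 0.00279). Mrpl44, an RNase III-like protein, rose by 0.22 (SE 0.07, limma adjusted p = 0.0393). Mrpl23 was at 11.36 and 11.20 with WT +dox, 11.03 and 11.07 with WT -dox, 11.03 and 11.00 with F266A +dox, and 10.75 and 10.86 with F266A -dox. WT +dox was highest and F266A -dox lowest. The difference on withdrawal of WT was -0.23 (SE 0.077, limma adjusted p = 0.0461), a call lost without WT +dox replicate 1, either WT -dox replicate or either F266A +dox replicate.

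By class, the 10 small-subunit proteins listed as found only in mitochondria had the highest median difference, 0.28, with 6 higher and 0 lower. This is 60% called, against 31.5% of all genes. Those that rose were Mrps18b, Mrps22, Mrps26, Mrps27, Mrps31 and Mrps34. Mrps18b was listed in this class although, as a paralog of S18, it has a bacterial relative. Mrps22 was at 9.78 and 9.71 with WT +dox and at 10.05 and 10.11 with WT -dox, a rise of 0.33 (SE 0.069, limma adjusted p = 0.00598). Mrps27, a pentatricopeptide-repeat protein, rose by 0.32 (SE 0.068, limma adjusted p = 0.00683). The 16 small-subunit proteins listed with a bacterial relative had a median of 0.087, with 5 higher and 0 lower. In the large subunit, the median was 0.10 for the 29 with a bacterial relative (10 higher, 1 lower) and 0.098 for the 20 without (4 higher, 0 lower). The shares called in these last 3 classes were 31.2%, 37.9% and 20%, beside the same 31.5% of all genes. Classes follow known ribosome structures, Mrps36 was in none, and differences between classes were not tested.

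**Figure D2:**
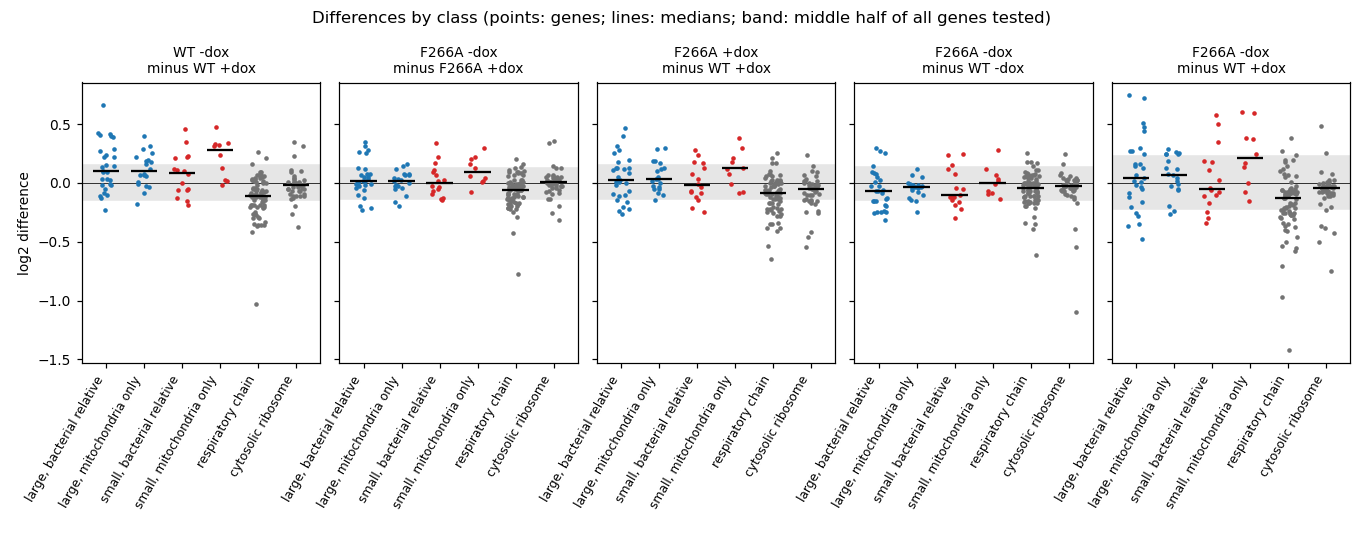
Log2 difference of each gene in the 5 comparisons between groups, for the 4 classes of members, respiratory chain subunits (77 genes) and cytosolic ribosomal proteins (44 genes). Points are genes, lines are medians and the grey band runs from the lower to the upper quartile of all 11940 genes. On withdrawal of WT, the medians of the member classes lie above 0, up to 0.28, and that of the respiratory chain is at -0.11.

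After withdrawal of F266A, fewer members were called. With F266A -dox, 8 were higher and 1 was lower than with F266A +dox (11.8%), against 19.5% of all genes, 8.94% higher and 10.6% lower. The higher ones were Mrpl12, Mrpl19, Mrpl20, Mrpl34, Mrpl35, Mrps11, Mrps18b and Mrps34, and Mrpl14 was lower. Mrpl19 and Mrpl35 are on chromosome 6 and Mrpl34 on chromosome 8, where all genes had medians of 0.060 and 0.12. Without chromosomes 6 and 8, 5 of 68 members were higher and 1 lower, with 18.3% of all genes called. The part of this shift was not tested. Mrpl35 was at 8.13 and 7.98 with F266A +dox and 8.37 and 8.44 with F266A -dox, groups that did not overlap, and rose by 0.35 (SE 0.079, limma adjusted p = 0.0151). Mrps11 rose by 0.34 (SE 0.066, limma adjusted p = 0.00842), from the values above. Mrpl14 differed by -0.23 (SE 0.067, limma adjusted p = 0.0385). The median of the members was 0.019, against -0.0001 for all genes. The count was 3 without F266A +dox replicate 1, 3 without F266A -dox replicate 1 and 3 without F266A -dox replicate 2, when 8.49%, 15.8% and 11.6% of all genes were called. Without F266A +dox replicate 2, limma called 0 of 76, with 9.57% of all genes called; with all arrays, 16 members had an unadjusted p under 0.05.

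The withdrawal comparisons share no array. In both, 7 members were higher: Mrpl12, Mrpl19, Mrpl20, Mrpl34, Mrps11, Mrps18b and Mrps34. They are 9.21% of the members, against 5.39% of all genes. Over the 76 members, Pearson's r between the differences was 0.71 and Spearman's rho 0.69, against 0.62 and 0.56 over all 11940 genes. These are across genes, which share arrays and are not independent replicates. The difference was above 0 in both lines for 39 members, below 0 in both for 17, above 0 in WT only for 15 and in F266A only for 5. In 60 of 76, the difference was more positive in the WT line. These counts by sign were not made over all genes, so they are not read as particular to the members. Medians of the difference between the lines are given below for both.

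**Figure D3:**
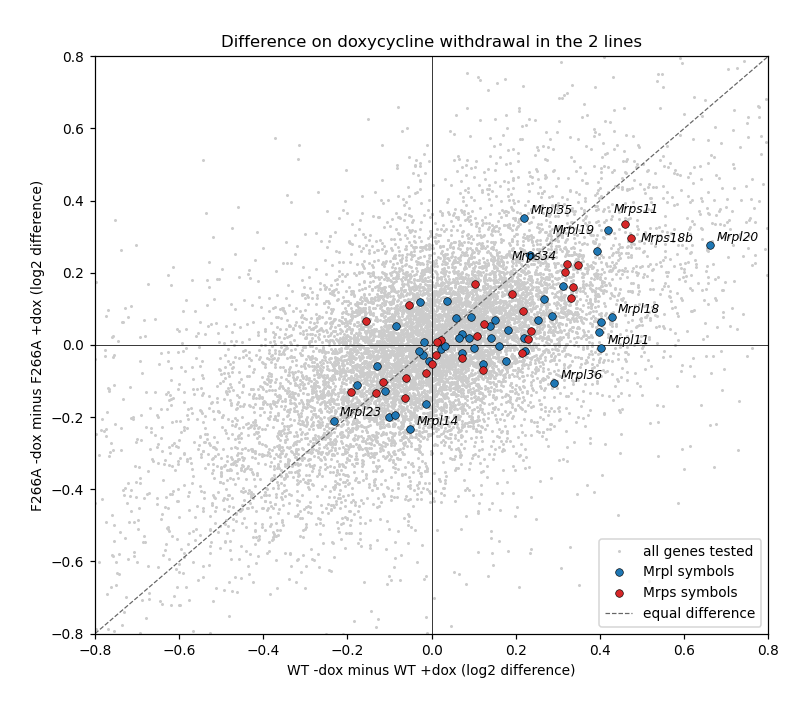
Log2 difference on doxycycline withdrawal in the WT line (horizontal axis) and the F266A line (vertical axis) for Mrpl symbols (blue), Mrps symbols (red) and all 11940 genes tested (grey; 409 lie outside the axes). Below the dashed line of equal difference lie 60 of the 76 members, with Mrpl20 farthest to the right. The share of all genes below it was not counted.

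The difference between the withdrawal effects was tested itself, as that in F266A minus that in WT. It was called for 2 members, both lower (2.63%), against 5.15% of all genes, 2.21% higher and 2.94% lower. The median of the members was -0.089, against -0.0087 for all genes. Mrpl36, a small protein of the large subunit, was at 9.45 and 9.44 with WT +dox, 9.75 and 9.73 with WT -dox, 9.53 and 9.53 with F266A +dox, and 9.47 and 9.37 with F266A -dox. WT -dox stood above the other 3 groups. It rose on withdrawal of WT by 0.29 (SE 0.065, limma adjusted p = 0.0085), and on withdrawal of F266A the difference was -0.11 (SE 0.065, limma adjusted p = 0.286). The interaction was -0.40 (SE 0.092, limma adjusted p = 0.0417). For Mrpl20 it was -0.39 (SE 0.091, limma adjusted p = 0.0439), with a rise of 0.66 in WT and 0.28 in F266A. The call for Mrpl20 was lost without any 1 of the 8 arrays, and that for Mrpl36 without any but F266A -dox replicate 1.

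With the transgenes induced, 11 members were higher and 5 lower in the F266A line than in the WT line (21.1%), against 28.3% of all genes, 15.9% higher and 12.5% lower. The median of the members was 0.033, against 0.0029. Mrps34, a protein found only in mitochondria and needed for a stable small subunit, was at 9.86 and 9.89 with WT +dox, 10.23 and 10.16 with WT -dox, 10.29 and 10.22 with F266A +dox, and 10.49 and 10.46 with F266A -dox. WT +dox was below the other groups, of which WT -dox and F266A +dox overlapped. Mrps34 was higher with F266A +dox by 0.38 (SE 0.066, limma adjusted p = 0.00248). Mrpl20 was higher by 0.47 (SE 0.064, limma adjusted p = 0.000694) and Mrpl19 by 0.40 (SE 0.075, limma adjusted p = 0.0036). The 5 lower members were Mrpl23, Mrpl24, Mrpl28, Mrps2 and Mrps24. The count was 8 without WT +dox replicate 1, 7 without WT +dox replicate 2, and it was lowest, 3, when F266A +dox replicate 1 was left out. In those fits 18.7%, 20.4% and 16.2% of all genes were called. By limma, 0 members were called lower without WT +dox replicate 1 or without either F266A +dox replicate, and 2 without WT +dox replicate 2.

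Withdrawal of WT and this comparison share the WT +dox arrays, so their values are only set side by side. Mrps7, in the head of the small subunit, was at 9.55 and 9.50 with WT +dox, 9.90 and 9.84 with WT -dox, 9.87 and 9.73 with F266A +dox, and 9.9984 and 10.05 with F266A -dox. WT +dox was again lowest, and WT -dox and F266A +dox overlapped. Mrps7 differed from WT +dox by 0.35 in WT -dox and 0.28 in F266A +dox, Mrpl16 by 0.22 and 0.31, and Mrpl18 by 0.43 and 0.20. All but the last of these 6 values were called, and for Mrpl18 with F266A +dox the limma adjusted p was 0.0749. The call for Mrps7 with F266A +dox was lost without either WT +dox replicate or without F266A +dox replicate 1, and that for Mrpl16 without F266A +dox replicate 1.

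Without doxycycline, 6 members were higher and 9 lower in the F266A line than in the WT line (19.7%), against 27.4% of all genes, 14% higher and 13.4% lower. The median of the members was -0.056, against -0.0089. Mrps24, the relative of bacterial S3 at the entry of the mRNA, was at 10.99 and 11.05 with WT +dox, 11.06 and 10.97 with WT -dox, 10.81 and 10.73 with F266A +dox, and 10.73 and 10.71 with F266A -dox. Both F266A groups were below both WT groups. The difference was -0.30 (SE 0.069, limma adjusted p = 0.0111), and within the lines, on withdrawal, it was 0.0012 and -0.051. Mrpl36 was lower by more, at -0.31 (SE 0.065, limma adjusted p = 0.00683). The members that were higher were Mrpl19, Mrpl34, Mrpl35, Mrps6, Mrps21 and Mrps34, by 0.23 to 0.30. Of these, Mrpl19 and Mrpl35 are on chromosome 6 and Mrpl34 on chromosome 8, where all genes had medians of 0.054 and 0.15. Without chromosomes 6 and 8, 3 of 68 members were higher and 9 lower, with 25.9% of all genes called. The part of this shift in these members was not tested. Mrps5 was called lower (-0.22), but its 5 probe sets ran from -0.51 to 0.051. The count was 5 without WT -dox replicate 1, 2 without WT -dox replicate 2, 7 without F266A -dox replicate 1 and 5 without F266A -dox replicate 2. The shares of all genes called were then 17.2%, 16.3%, 23.8% and 17.9%.

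Between F266A -dox and WT +dox, 26 members were higher and 13 lower (51.3%), against 50.9% of all genes, 25.9% higher and 25% lower. The median of the members was 0.052, against 0.0023. Mrpl20 was higher by 0.75 (SE 0.064, limma adjusted p = 1.52e-05) and Mrpl19 by 0.72 (SE 0.075, limma adjusted p = 4.61e-05). Mrpl23 fell most, at -0.48 (SE 0.077, limma adjusted p = 0.000717), and Mrpl24, its neighbour at the exit, was at -0.37 (SE 0.066, limma adjusted p = 0.00124). Mrpl2, close to the peptidyl transferase centre, was at 11.18 and 11.19 with WT +dox, 11.07 and 11.09 with WT -dox, 11.05 and 11.03 with F266A +dox, and 10.78 and 10.89 with F266A -dox. WT +dox was highest, F266A -dox lowest and no groups overlapped, with a difference of -0.35 (SE 0.067, limma adjusted p = 0.002). Mrpl11 was called higher (0.27), although 1 of its 4 probe sets was at -0.045 and the highest at 0.45.

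**Figure D4:**
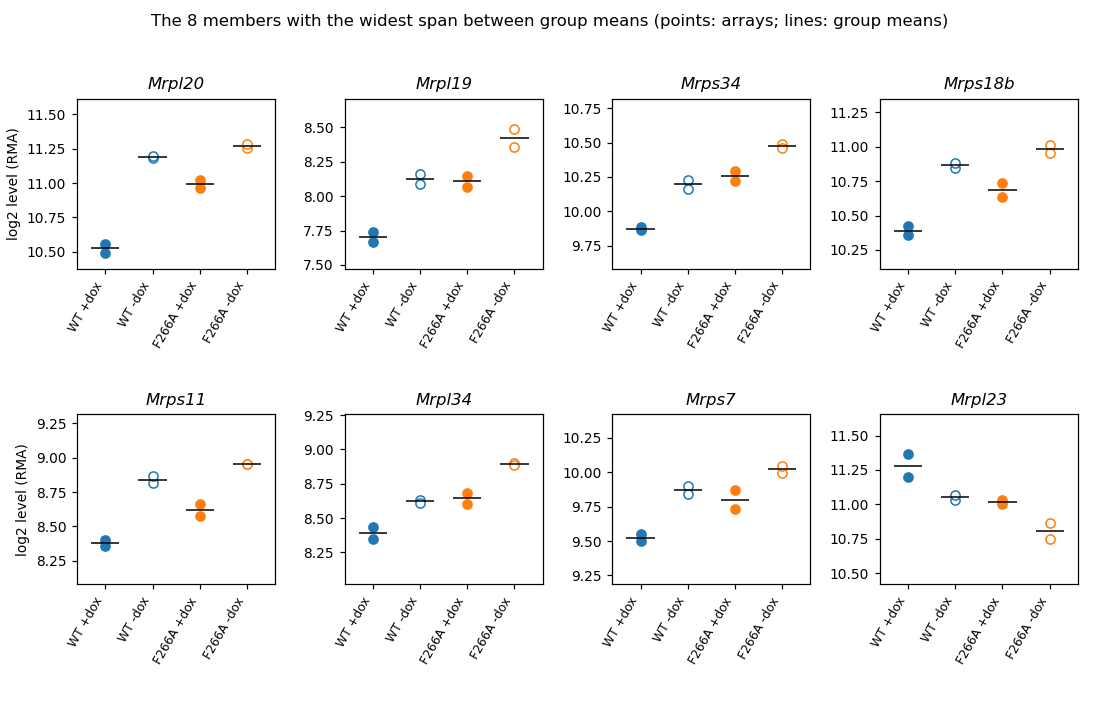
Log2 level on each array of the 8 members with the widest span between group means. Points are arrays (blue WT, orange F266A, filled +dox, open -dox), lines are group means, and the axes of all panels cover the same number of log2 units. In all but Mrpl23, WT +dox is lowest and F266A -dox highest, and Mrpl23 is the reverse.

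Over the 4 groups, WT +dox had the lowest mean in 37 of the 76 members (48.7%, against 34.4% of all genes). WT -dox had the highest mean in 34 (44.7%, against 21.1%) and the lowest in 3. F266A -dox was highest in 19 (25%, against 31.7%) and lowest in 25 (32.9%, against 33.2%). Mrpl19 was at 7.74 and 7.67 with WT +dox, 8.16 and 8.09 with WT -dox, 8.15 and 8.06 with F266A +dox, and 8.49 and 8.36 with F266A -dox, and Mrpl34, whose bacterial relative is among the smallest of the ribosome, was at 8.44 and 8.34 with WT +dox, 8.64 and 8.61 with WT -dox, 8.69 and 8.60 with F266A +dox, and 8.90 and 8.89 with F266A -dox. In both, WT +dox was lowest, F266A -dox highest, and the groups between overlapped. Mrpl19 and Mrpl35 are on chromosome 6 and Mrpl34 and Mrps31 on chromosome 8, where the median difference of all genes between F266A -dox and WT +dox was 0.12 and 0.20. On the other chromosomes it ran from -0.058 to 0.050, and the part of this shift in these members was not tested. The other 4 members on chromosome 6 differed by 0.12 (SE 0.069, limma adjusted p = 0.196), 0.0029, -0.073 and -0.15 (Mrpl51, Mrps33, Mrps25 and Mrps35), none of them called. At the other end, the group means of Mrps33 spanned 0.018, those of Mrpl21 0.048 and those of Mrps30 0.061.

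Genes that work with the mitochondrial ribosome were read from lists set by known role. Of 26 assembly factors, 6 were higher and 3 lower after withdrawal of WT (34.6% called, against 31.5% of all genes; median 0.034). Noa1, a GTPase, rose by 0.44 (SE 0.089, limma adjusted p = 0.00484), and Ddx28, a helicase of large-subunit assembly, by 0.44 (SE 0.078, limma adjusted p = 0.00265). Mpv17l2 differed by -0.43 (SE 0.07, limma adjusted p = 0.0017). Of 12 translation factors, 3 were higher and 0 lower, with Tufm, the mitochondrial elongation factor Tu, at 0.27 (SE 0.078, limma adjusted p = 0.0263). Of 18 aminoacyl-tRNA synthetases and amidotransferase subunits, 2 were higher, Yars2 most at 0.58 (SE 0.076, limma adjusted p = 0.000557), and 1 was lower. Of 20 genes of mitochondrial RNA synthesis and processing, 5 were higher and 0 lower, with Fastkd5 at 0.51 (SE 0.074, limma adjusted p = 0.00097). The shares called were 25% of translation factors, 16.7% of synthetases and 25% of RNA synthesis and processing genes. Of 4 tested genes of the mitochondrial ribosome under other symbols, limma called 0 (2 had an unadjusted p under 0.05). On withdrawal of F266A, the counts of higher and lower genes were 2 and 1 for assembly factors, 1 and 0 for translation factors, 1 and 0 for synthetases, and 3 and 0 for RNA synthesis and processing. In the same order, 11.5%, 8.33%, 5.56% and 15% were called, against 19.5% of all genes.

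Among the other lists, respiratory chain subunits had more lower than higher calls. Of 77 nuclear-encoded subunits, 2 were higher and 20 lower after withdrawal of WT, with a median of -0.11 (28.6% called, against 31.5% of all genes). Between F266A -dox and WT +dox, 4 were higher and 31 lower (45.5% called, against 50.9% of all genes). Of 44 cytosolic ribosomal proteins, 3 were higher and 2 lower after withdrawal of WT (11.4% called, median -0.018). Among 10 regulators of mitochondrial biogenesis, Tfe3 (0.45) and Yy1 (0.19) rose and Ppargc1b fell (-0.72). Myc, the E-box factor, rose by 2.47 (SE 0.1, limma adjusted p = 1.89e-06) in the WT line and by 1.13 (SE 0.1, limma adjusted p = 0.000294) in the F266A line. Of the transcripts of the mitochondrial genome, ND5 was annotated on the array, and it was at 11.28 and 11.62 with WT +dox, 11.15 and 11.11 with WT -dox, 11.52 and 11.44 with F266A +dox, and 11.14 and 11.38 with F266A -dox. Both lines had the lower mean without doxycycline, by -0.32 (SE 0.12, limma adjusted p = 0.0651) and -0.22 (SE 0.12, limma adjusted p = 0.226), neither of which passed. The groups did not overlap in either line, but on withdrawal of WT 32.8% of all genes likewise had both arrays below both. ND5 was chosen after its values were seen. Differences between these lists and the members were not tested.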

How the data were processed

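Per the study's methods, the authors ran justRMA (RMA, under R 2.11.1), and their deposited values are on a log2 scale, 1 per probe set. Probe sets with 1 gene symbol in the platform annotation that exceeded 50 (5.64 on the log2 scale) on at least 1 array were averaged per gene, after the methods. All 11940 genes were fitted over the 4 groups with limma 3.58.1 (R 4.3.3), with eBayes and Benjamini-Hochberg adjustment over all genes, and called at 0.05. The SAM test of the methods was not used here. RMA evens out the distributions of the arrays, so that a change shared by all transcripts would not be seen. The arrays of a group are biological duplicates, and their number limits the precision. Median SE of a member's difference was 0.069.

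The members and lists were chosen with earlier results of these data known. Named members were, in each comparison and subunit, up to 4 called members highest and 4 lowest by difference, the 8 with the widest span, the Mrps18 paralogs, the stalk, Mrps30 and Mrps36, with up to 3 called genes of each other list. Others were named for their role, after their values were seen. The fit was tested on simulated data. Alternatives changed the filter, the probe sets of a gene, the normalisation, the arrays fitted, the block, the prior, the chromosomes and the call rule.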

Additional observations from a re-analysis of the deposited data

Results flagged for a closer look

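Mrpl36 and Mrpl20 stood out because the effect of withdrawal differed between the lines by a direct test of that difference. For Mrpl36 the interaction was -0.40 on the log2 scale (SE 0.092, limma adjusted p = 0.0417), with a rise in the WT line (0.29) and a difference of -0.11 in the F266A line. For Mrpl20 it was -0.39 (SE 0.091, limma adjusted p = 0.0439), with rises in both lines (0.66 and 0.28). Both calls lay just inside the threshold and were lost in 7 of the 8 fits without 1 array for Mrpl36 and in all 8 for Mrpl20.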

How the results depend on the processing

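Groups of 2 arrays limit the precision. Of 60 differences of named members, picked as the largest called, most lost their call when 1 array or another was left out. None changed sign in the fits with 1 value per gene. Signs were not compared in this way for single probe sets, and 2 called differences had probe sets of both signs. Leaving out 1 array gave 14 to 26 members called on withdrawal of WT, 0 to 8 on withdrawal of F266A, 3 to 15 between the induced lines, 2 to 14 between the lines without doxycycline, 26 to 36 between F266A -dox and WT +dox, and 0 to 2 for the interaction. The medians of the members then ran from 0.0939 to 0.1199, -0.0029 to 0.0459, 0.0063 to 0.0607, -0.0688 to -0.0529, 0.0273 to 0.058, and -0.1096 to -0.0605. Without the expression filter, the members called were 16 on withdrawal of WT, 4 on withdrawal of F266A, 7 between the lines without doxycycline and 0 for the interaction, with 15.4%, 8.45%, 13.5% and 1.59% of all genes called. The share of members then lay above that of all genes between the induced lines (15.8% against 13.5%) and between F266A -dox and WT +dox (42.1% against 30.2%), where with the filter it was below (21.1% against 28.3%) and near it (51.3% against 50.9%). A minimum of 100 gave 14 on withdrawal of F266A and 4 for the interaction (26.4% and 8.11% of all genes). With each probe set on its own, 25 of the 136 were called between the induced lines, 60 between F266A -dox and WT +dox, and 0 for the interaction (24.9%, 47% and 2.71% of all probe sets). Quantile normalization gave a median of 0.0188 between F266A -dox and WT +dox. Fits of only the groups compared gave 5 on withdrawal of F266A and 7 between the lines without doxycycline (17.2% and 22.8% of all genes). A trended and robust prior gave 15 on withdrawal of F266A, 26 between the induced lines and 6 for the interaction, with 24.6%, 32.5% and 9.3% of all genes, so that the members between the induced lines (34.2%) were above all genes rather than below. At least 2-fold, 0 were called in all 6 comparisons. The cause of these shifts was not tested.

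The sample titles do not say whether equal replicate numbers mark paired samples. Deviations of arrays with the same number correlated at 0.13 and 0.16 within the lines and at -0.18 to -0.11 between them. With 2 arrays per group, these values cannot settle whether the samples were paired. With the replicate number as a block, 0 members were called for the interaction, 21 on withdrawal of WT and 7 on withdrawal of F266A. Of all genes, 3.78%, 28.8% and 17.4% were then called. A crossed pairing between the lines, a block chosen after seeing the data, gave 4, 28 and 9, with 7.5%, 35.2% and 23.7% of all genes.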
